A study of Mus musculus with 36 samples.

Results

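The 10 genes described here encode the enzymes of de novo lipogenesis, the synthesis of fatty acids from acetyl-CoA, with 2 proteins that regulate them. They were chosen by name (Acly, Acaca, Acacb, Fasn, Mid1ip1, Thrsp, Elovl6, Scd1, Me1 and Aacs) and not by a cutoff on a measured value. Earlier results of these data were known when they were chosen, so the choice was not blind to them. All 10 were among the 52230 genes counted and all 10 were among the 12177 genes with enough reads to be tested. RNA was sequenced from 36 monolayer cultures of primary hepatocytes from 3 female mice of the GCKR-P446L-EMI-B6N strain, aged 14 wk. By the labels mice 1 and 2 were Gckr-446L and mouse 3 was Gckr-446P/L, and all conditions shared this background, which the submitters describe as deficient in GKRP, the glucokinase regulatory protein. The methods of the study describe the P446L hepatocyte donors as homozygous for the leucine form, which differs from the label of mouse 3, and this was not settled. Because mouse 3 was the only one with its label, genotype and animal cannot be told apart.

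The hepatocytes had either endogenous glucokinase (GK) or GK overexpressed from an adenoviral vector. Each GK level was combined with no GKRP vector or with an adenovirus for human GKRP-446P (hP), human GKRP-446L (hL), mouse GKRP-446P (mP) or mouse GKRP-446L (mL), where P and L are the residues proline and leucine at position 446. This gave 10 conditions, namely untreated, hP, hL, mP and mL at endogenous GK, and GK, GK+hP, GK+hL, GK+mP and GK+mL with overexpression. Untreated hepatocytes got no vector at all and there was no empty vector, so the effect of an adenovirus as such cannot be told apart from that of its insert. All cultures were kept for 24 h with 5 mM glucose, 10 nM insulin and 10 nM dexamethasone and then for 4 h with 25 mM glucose. Untreated and GK had 2 cultures per mouse, which were summed, so that each condition has n = 3 mice.

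GK phosphorylates glucose in hepatocytes, and GKRP binds GK and holds it in the nucleus. Glucose carbon that passes through glycolysis leaves the mitochondrion as citrate and is turned into cytosolic acetyl-CoA, then malonyl-CoA, then palmitate, which is elongated and desaturated. In liver these genes are known to be switched on together after feeding by the transcription factors ChREBP, which responds to glucose metabolites, and SREBP-1c, which responds to insulin.

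The GKRP vectors were checked first, in CPM (read counts scaled to library size with TMM factors). Gckr lay between 39.2 and 118.7 CPM in the 9 endogenous-GK samples without a mouse vector and between 11250 and 23050 CPM in the 6 with one. With GK overexpressed it was 14780, 14380 and 20150 CPM with GK+mP and 10940, 9010 and 14490 CPM with GK+mL in mice 1, 2 and 3, lower with mL in each mouse. Human GCKR is not in the mouse transcripts that reads were assigned to, so the human vectors could not be checked. One of the 2 GK cultures of mouse 3 held 1462 CPM of Gckr (by single culture) against at most 98.0 CPM in the 5 other GK cultures. Leaving it out gave 6 called lipogenic genes in place of 5 in the comparison with endogenous GK. Over all genes 52 were then called higher and 9 lower, in place of 48 and 4. Libraries held 3924674 to 10046158 reads (median 5980276). Hepatocyte markers summed to 93330 to 163600 CPM at endogenous GK and to 101800 to 148400 with GK alone, with none of the 12 at 0. Macrophage markers summed to 264.3 to 369.3 CPM and endothelial and stellate markers to 75.1 to 248.5 CPM over all groups, and the adipocyte markers, which matter because fat cells express the same enzymes, never exceeded 0.47 CPM in sum, with Cfd and Retn at 0 in all endogenous-GK and GK-alone samples. The summed markers of GK alone lay within the range of all other samples for each list, with the mice pooled. Within each mouse, though, the endothelial and stellate sum with GK alone (132.2, 217.6 and 205.6 CPM in mice 1, 2 and 3) exceeded that of every endogenous-GK condition. No other list did so in all 3 mice. By gene, 9 of 10 tested endothelial and stellate markers had higher values with GK than at endogenous GK (median log2 fold change 0.09) and 8 of 10 had lower values with GK+mP than with GK alone (median -0.19, with 2 called lower when the mouse was a term); these are the directions described next for the lipogenic genes, and the part of the markers in those results was not tested. In bulk cultures fewer cells of a type cannot be told apart from less RNA per cell.

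The promoters of 4 of the genes are shown because their transcripts moved together with GK (Acly, Fasn and Aacs, described next) or were by far the most abundant of the group (Scd1). Each is the 250 bases before the start of the leading transcript, 5′ to 3′ on the strand of the gene, read from the GRCm39 genome with Gencode M39. Capitals mark CCAAT boxes (CCAAT, or ATTGG on the other strand) and GC boxes (CCGCCC or GGGCGG).
Acly, chr11:100418827-100419076, minus strand: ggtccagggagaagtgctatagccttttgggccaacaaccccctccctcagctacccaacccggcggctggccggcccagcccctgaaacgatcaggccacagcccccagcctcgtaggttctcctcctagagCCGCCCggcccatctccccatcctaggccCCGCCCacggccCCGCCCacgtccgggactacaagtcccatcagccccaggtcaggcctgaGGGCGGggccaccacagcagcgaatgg
Fasn, chr11:120715403-120715652, minus strand: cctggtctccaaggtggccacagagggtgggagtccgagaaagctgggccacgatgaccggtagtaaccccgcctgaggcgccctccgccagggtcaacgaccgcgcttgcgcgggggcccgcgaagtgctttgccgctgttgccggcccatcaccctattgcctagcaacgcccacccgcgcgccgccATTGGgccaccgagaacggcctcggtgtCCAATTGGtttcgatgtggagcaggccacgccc
Scd1, chr19:44396341-44396590, minus strand: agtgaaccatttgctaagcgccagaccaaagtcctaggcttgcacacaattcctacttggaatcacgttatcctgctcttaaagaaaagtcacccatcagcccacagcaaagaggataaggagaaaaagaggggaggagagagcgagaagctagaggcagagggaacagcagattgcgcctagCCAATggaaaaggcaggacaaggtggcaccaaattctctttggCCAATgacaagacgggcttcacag
Aacs, chr5:125552610-125552859, plus strand: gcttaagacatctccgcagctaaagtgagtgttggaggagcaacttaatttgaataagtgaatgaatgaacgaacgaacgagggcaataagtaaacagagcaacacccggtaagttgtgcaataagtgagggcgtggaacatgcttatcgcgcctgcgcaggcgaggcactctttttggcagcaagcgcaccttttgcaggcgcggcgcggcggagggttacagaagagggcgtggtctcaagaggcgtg
Fasn held 3 CCAAT boxes, at -61 to -57, -33 to -29 and -30 to -26 from the start, the last pair overlapping, and Scd1 held 2, at -67 to -63 and -24 to -20. Across all 10 lipogenic genes only Fasn and Scd1 had this motif in the window, against 35.7% of the promoters of 12176 tested genes. GC boxes occurred 4 times in Acly and 3 times in Mid1ip1 and in no other member, against 46.7% of all promoters. The E-box CACGTG occurred in 7.32% of all promoters, and the sterol regulatory element searched as TCACNCCAC in 1.03%, but in none of the 10. Neither CACGTG repeated after 5 bases, the spacing of a carbohydrate response element, nor AGGTCA repeated after 4 bases, an LXR element, occurred in any promoter searched on either strand. These windows are short, and a motif farther away would not have been seen. The leading transcripts of Acaca, Acly, Fasn, Mid1ip1, Elovl6 and Scd1 start inside the annotated gene (for Acly, at 100418826 in a gene that reaches 100440756 on the minus strand), so these windows are not the outermost promoters. Of the 250 bases, 89 in Mid1ip1 and 12 in Elovl6 lie in annotated exons of the same gene.

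Lipogenic transcripts differed widely in level. Per kb of transcript, untreated hepatocytes held 661 ± 113 CPM of Scd1 (SD, n = 3), the desaturase that makes oleate and palmitoleate, and 68.3 ± 5.43 of Acly, which cleaves citrate to acetyl-CoA. Next came Me1, malic enzyme, a source of NADPH, at 62.3 ± 3.61 CPM per kb, and Fasn, the synthase that builds palmitate, at 30.2 ± 1.96. The SDs of Acly and Me1 overlapped, whereas Fasn lay below both.
Among the rest Aacs, which activates acetoacetate in the cytosol, had 17.4 ± 2.48 CPM per kb and Mid1ip1, which promotes the polymerization of acetyl-CoA carboxylase, 14.9 ± 3.45. Elovl6, which elongates palmitate to stearate, had 10.7 ± 2.93, and Acaca, the cytosolic carboxylase that makes malonyl-CoA, had 10.1 ± 2.49. Thrsp, the relative and partner of Mid1ip1, had 10.7 ± 7.28, with a spread that came from mouse 2 (24.3 CPM before length scaling, against 7.03 and 9.69 in mice 1 and 3). The lowest was Acacb, the mitochondrial carboxylase whose malonyl-CoA restrains fatty acid oxidation, at 5.97 ± 2.62. Neighbours from Aacs to Acacb did not differ beyond their SDs.

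**Figure D1:**
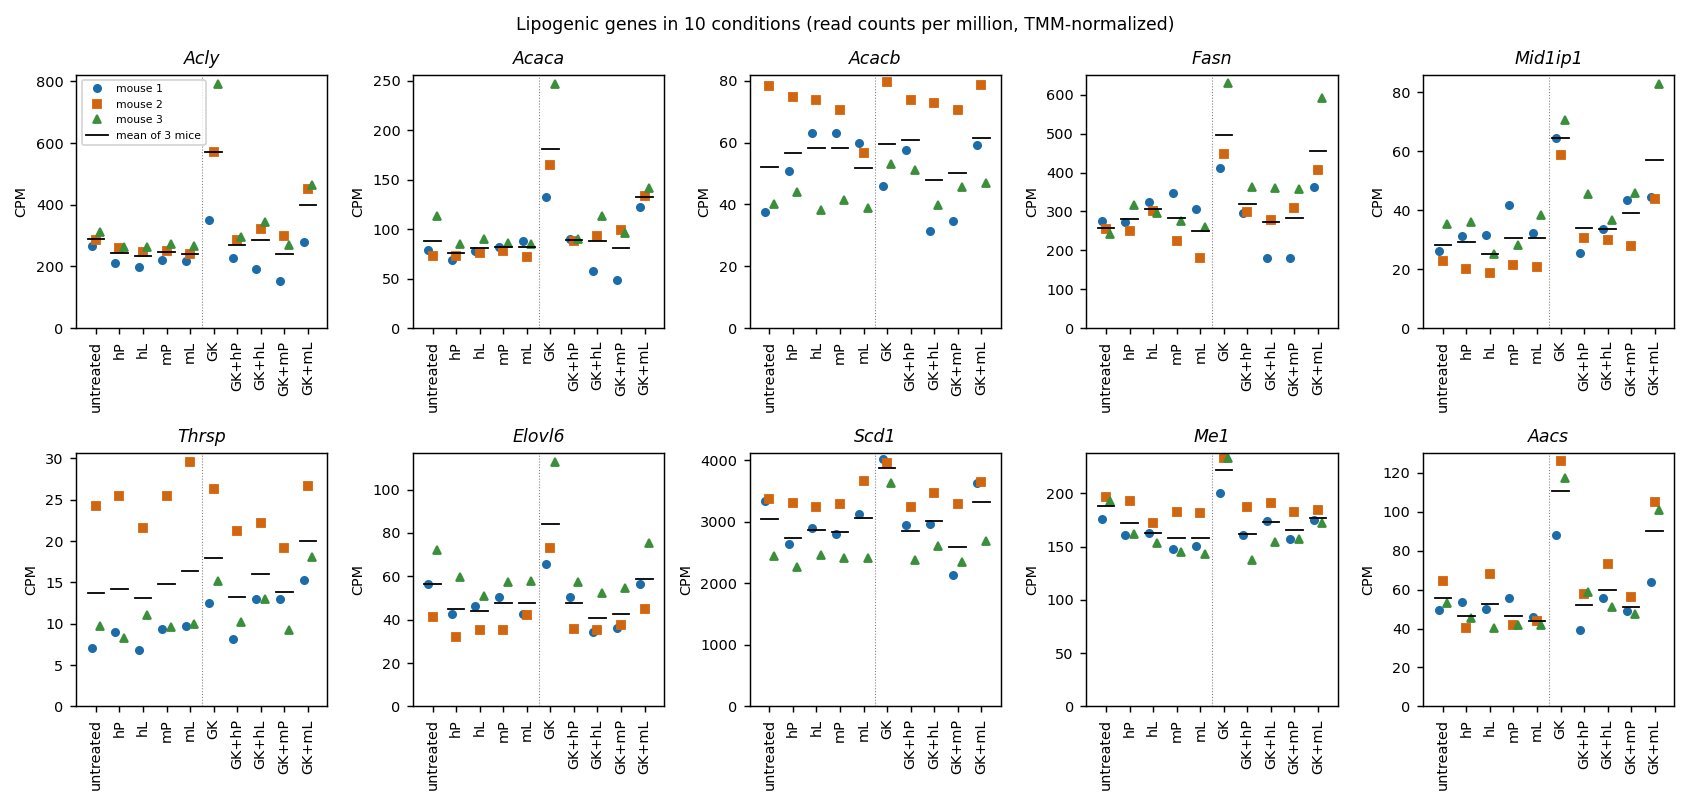
CPM of each of the 10 lipogenic genes (vertical axes from 0) in the 10 conditions, with 1 symbol per mouse and a bar at the mean of 3 mice; the dotted line separates endogenous GK (left) from GK overexpression (right). Acly, Acaca, Fasn, Mid1ip1, Me1 and Aacs were higher in all 3 mice with GK than in any of the 15 endogenous-GK samples, while Acacb and Thrsp differed more between mice than between conditions.

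GK overexpression was first compared with the 5 endogenous-GK conditions combined, which asks what extra GK does to the transcriptome at high glucose. Acly, Acaca, Mid1ip1 and Aacs were each raised a little over 2-fold and Fasn 1.80-fold. The remaining genes had higher means too, with folds from 1.08 for Acacb to 1.74 for Elovl6, but did not pass the test. Calling a gene required both an adjusted p below 0.05 and a fold of 1.3 or more, or of 0.7 or less. By this rule 5 of 10 lipogenic genes were called higher and none lower, where 0.394% of all 12177 genes were called higher and 0.0328% lower. The median log2 fold change of the 10 genes was 0.83, against -0.01 over all genes tested, and all 10 had positive values in the model and in each of its 13 alternatives, where 47.6% of all genes had positive values in the model.

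For the supply of acetyl-CoA, Acly had 349.6, 572.2 and 790.4 CPM with GK in mice 1, 2 and 3, and 196.6 to 311.6 CPM (median 258.9) in the 15 endogenous-GK samples. The ranges did not overlap. Its log2 fold change was 1.18 ± 0.18 (SE, edgeR adjusted p = 0.00036). Aacs, which activates acetoacetate instead, had 88.2, 125.9 and 117.3 CPM with GK. Without GK overexpression it had 40.2 to 68.2 CPM (median 46.0), again with no overlap. Its log2 fold change of 1.17 ± 0.15 (SE) had the lowest adjusted p of the 10 genes in this comparison (2.96e-05, edgeR).

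For the carboxylation step, Acaca had 132.7, 165.1 and 246.4 CPM with GK and 69.2 to 113.4 CPM (median 79.4) at endogenous GK, a log2 fold change of 1.15 ± 0.16 (SE, edgeR adjusted p = 0.00012). Mid1ip1 had 64.5, 58.8 and 70.5 CPM with GK and 18.9 to 41.7 CPM (median 28.3) without, a log2 fold change of 1.17 ± 0.20 (SE, edgeR adjusted p = 0.0020). Neither gene overlapped between the groups. Their relatives gave other values. Acacb had 46.1, 79.6 and 53.1 CPM with GK and 37.5 to 78.3 CPM without, and its log2 fold change was 0.11 ± 0.25 (SE, edgeR adjusted p = 1.0). Thrsp had 12.5, 26.3 and 15.2 CPM with GK and 6.79 to 29.5 CPM without, and its log2 fold change was 0.32 ± 0.40 (SE, edgeR adjusted p = 1.0). In both, the levels of mouse 2 stood above the other mice in most conditions, and the groups overlapped.

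Fasn, which carries the whole reaction sequence from malonyl-CoA to palmitate, had 412.4, 447.1 and 629.6 CPM with GK and 181.1 to 347.1 CPM (median 274.3) at endogenous GK. The ranges did not overlap and the log2 fold change was 0.85 ± 0.18 (SE, edgeR adjusted p = 0.019). Of the genes acting after palmitate, Elovl6 had 65.8, 73.3 and 112.9 CPM with GK against 32.2 to 72.0 CPM without, and Scd1 had 4027, 3951 and 3630 CPM against 2262 to 3660 CPM. In each, 2 of the 3 GK samples exceeded all 15 others. Elovl6 had a log2 fold change of 0.80 ± 0.20 (SE, edgeR adjusted p = 0.069) and Scd1 of 0.41 ± 0.14 (SE, adjusted p = 0.29). Me1 had 200.5, 233.2 and 233.4 CPM with GK and 143.3 to 196.7 CPM without, which did not overlap although the log2 fold change was 0.40 ± 0.10 (SE, edgeR adjusted p = 0.057).

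In all, 6 of the 10 genes had the 3 GK samples above all 15 endogenous-GK samples, a pattern held by 0.567% of all genes tested. In a model that also held the mouse, which pairs the samples of each animal, 8 of 10 were called, the 5 above with Elovl6 (log2 fold change 0.80, edgeR adjusted p = 7.5e-06), Scd1 (0.43, adjusted p = 0.00072) and Me1 (0.41, adjusted p = 0.0010), where 1.3% of all genes were called higher and 0.69% lower. Of the 10 genes 5 were called without mouse 1, 2 without mouse 2 and 0 without mouse 3, and over all genes 61, 20 and 8 were called higher in these fits. The log2 fold changes kept most of their size when a mouse was left out, at 1.05 to 1.27 for Mid1ip1, 1.07 to 1.34 for Aacs, 0.97 to 1.31 for Acaca, 0.96 to 1.36 for Acly and 0.66 to 1.05 for Fasn. None was called by a model with transcript length offsets or by limma on TPM, both of which rest on effective lengths that varied up to 59.6-fold between libraries for Acly and 67.8-fold for Aacs. Log2 ratios of GK to the mean of endogenous GK within mice 1, 2 and 3 were 0.66, 1.16 and 1.52 for Acly, 0.74, 1.15 and 1.42 for Acaca, 0.43, 0.88 and 1.18 for Fasn, 0.79, 1.28 and 1.396 for Aacs, and 0.98, 1.499 and 1.11 for Mid1ip1.

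The 10 transcripts summed to 4082 ± 489 CPM in untreated hepatocytes and to 5677 ± 254 CPM with GK (SD, n = 3), which did not overlap. Scd1 made up 61.3% to 80.8% of this sum in every sample. Without Scd1 the sum was 1808 ± 449 CPM with GK and between 920.3 and 1028 CPM, as condition means, at endogenous GK.

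Compared with untreated hepatocytes alone, GK gave log2 fold changes from 0.20 (Acacb) to 1.20 (Mid1ip1). All 10 genes had positive values in the model, where 49.6% of all genes did, though a length-adjusted model gave -0.03 for Me1. Each of the 10 was also higher in 3 of 3 mice, a pattern whose share over all genes is not given here. None of the 10 was called by edgeR, and over all genes 0.00821% were called higher and 0.0% lower, while 135 had an unadjusted p under 0.05 with a higher and 114 with a lower value. With the mouse as a term, 5 were called (Acly, Acaca, Mid1ip1, Elovl6 and Aacs), against 0.345% of all genes. DESeq2 without that term called 3, where over all genes it called 21 higher and 11 lower.

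**Figure D2:**
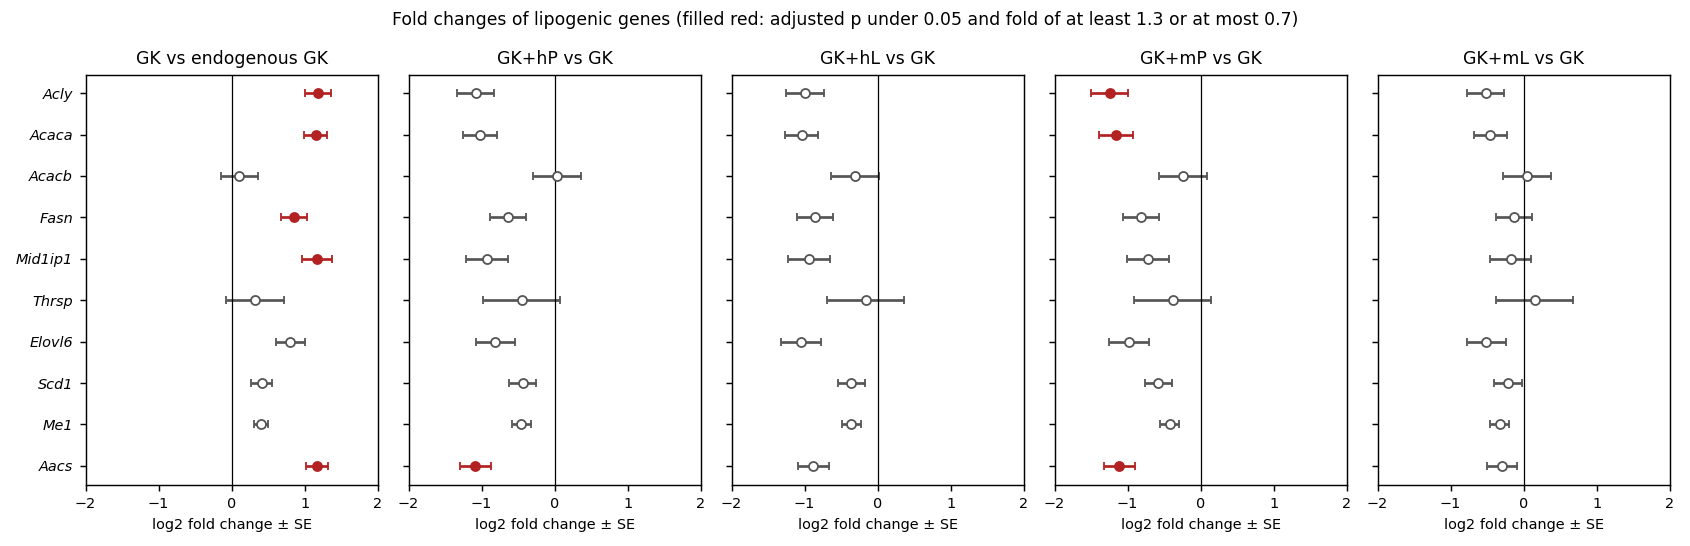
Log2 fold changes ± SE (horizontal axes) of the 10 lipogenic genes for GK against the endogenous-GK conditions, and for GK with each GKRP vector against GK alone, with n = 3 mice per condition. Filled red points passed the adjusted p and fold thresholds, which was so for 5 genes with GK, for Aacs with GK+hP, for Acly, Acaca and Aacs with GK+mP, and for none with GK+hL or GK+mL.

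At endogenous GK no lipogenic gene was called against untreated with any GKRP vector. None of the 10 was called with any vector, nor in the mean of the 4 vectors, in the model or with the mouse as a term, although other genes were. Of all genes 0.706% were called higher and 0.0739% lower with hP, 0.805% and 0.0739% with hL, 0.994% and 0.123% with mP, 0.912% and 0.14% with mL, and 1.49% and 0.402% in the mean of the 4 vectors. With the mouse as a term these shares were 1.95% and 0.501% (hP), 2.51% and 0.46% (hL), 2.41% and 0.895% (mP), 2.49% and 0.673% (mL) and 3.1% and 1.05% (mean). Log2 fold changes ranged from -0.36 (Elovl6 with hL) to 0.26 (Fasn with hL). The scalings that use effective lengths gave wider values, as with TPM for Acly, which ran from -1.07 (hL) to -1.45 (mP) over the 4 vectors, and for Aacs -1.26 with hL by TPM and 0.93 with hP by a length-adjusted model. Acly was 266.0, 285.9 and 311.6 CPM in untreated hepatocytes of mice 1 to 3 and 210.7, 258.9 and 261.9 CPM with hP, lower in 3 of 3 mice, as it also was with hL, mP and mL. The mean over the 4 vectors gave it a log2 fold change of -0.25 ± 0.21 (SE, edgeR adjusted p = 0.93). Me1 was likewise lower in 3 of 3 mice with each vector, and its mean log2 fold change was -0.21 ± 0.10 (SE, edgeR adjusted p = 0.46). With the mouse as a term its edgeR adjusted p was 0.026, at a size under the fold threshold. TPM turned Me1 to 0.33 with hP and 0.17 with hL, and the length-adjusted model to 0.003 with hP. Both scalings kept it negative with mP and mL. The share of all genes that were lower in 3 of 3 mice is not given for these comparisons.

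With GK overexpressed, adding a GKRP vector asks how far the regulatory protein reverses what extra GK did. Most lipogenic transcripts had lower levels with hP, hL and mP, close to those at endogenous GK, while with mL the means of Acly, Acaca, Fasn, Mid1ip1 and Aacs lay between endogenous-GK levels and GK alone. For the mean of the 4 vectors against GK alone, 4 of 10 genes were called lower (0.501% of all genes were, and 1.11% were called higher), and all 10 had negative values except that the length-adjusted model gave 0.21 for Scd1. Acaca fell by 0.92 ± 0.18 on the log2 scale (SE, edgeR adjusted p = 0.0046), Acly by 0.96 ± 0.20 (adjusted p = 0.0075), Aacs by 0.85 ± 0.16 (adjusted p = 0.0028) and Elovl6 by 0.84 ± 0.21 (adjusted p = 0.035). Me1 also passed the adjusted p (0.029, edgeR), but with a log2 fold change of -0.39 it missed the fold of 0.7. The median of the 10 genes was -0.65 and that of all genes 0.01. These comparisons share the GK samples with the one above, so a low or high GK sample enters both. With the mouse as a term 6 were called, adding Mid1ip1 and Fasn (1.42% of all genes lower, 2.92% higher). Without mouse 3 none of the 4 was called, without mouse 2 only Aacs was, and without mouse 1 the count was 3. Over all genes 4, 45 and 50 were called lower in these fits.

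Taken by vector, GK+hP had 1 gene called lower (Aacs, log2 fold change -1.09 ± 0.21 SE, edgeR adjusted p = 0.029) where 0.0985% of all genes were called lower. GK+mP had 3 (0.205% of all genes lower, 0.0657% higher), with Acly at -1.25 ± 0.26 (SE, edgeR adjusted p = 0.026), Acaca at -1.16 ± 0.23 (adjusted p = 0.019) and Aacs at -1.11 ± 0.21 (adjusted p = 0.019). GK+hL had none (0.00821% of all genes), though its log2 fold changes for Acly (-0.996 ± 0.25 SE), Acaca (-1.04 ± 0.23) and Elovl6 (-1.05 ± 0.27) were of similar size. GK+mL had none either (0.0% of all genes), with values from -0.52 (Acly) to 0.15 (Thrsp), and a length-adjusted model turned Acaca, Fasn, Mid1ip1, Me1 and Scd1 there to positive values (0.35 to 0.89). Scd1 was turned to a positive value by that model with GK+hP and GK+hL too (0.23 and 0.40). At an unadjusted p under 0.05, edgeR gave 373 genes lower with GK+hL and 261 lower with GK+mL. DESeq2 called 3 lipogenic genes with GK+hL and 0 with GK+mL, but its counts over all genes for single vectors are not given here. With the mouse as a term the counts were 5 with GK+hP (0.55% of all genes), 5 with GK+hL (0.312%), 7 with GK+mP (2.37%, and 2.25% called higher) and 0 with GK+mL (0.0%).

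The samples show the same order. Acly had 227.3, 287.3 and 295.4 CPM with GK+hP in mice 1, 2 and 3, and 190.8, 322.2 and 345.5 CPM with GK+hL. With GK+mP it had 153.5, 299.5 and 269.4 CPM, and with GK+mL 278.2, 450.1 and 465.4 CPM. The first 3 conditions lay wholly below GK alone, and GK+mL overlapped it. Acaca had 90.1, 88.1 and 89.8 CPM with GK+hP, 58.0, 93.3 and 113.3 with GK+hL, 49.0, 98.7 and 95.8 with GK+mP and 121.9, 133.2 and 141.1 with GK+mL. Aacs had 39.3, 57.5 and 58.9 CPM with GK+hP, 55.6, 72.9 and 51.2 with GK+hL, 49.2, 56.2 and 47.7 with GK+mP and 63.8, 105.1 and 100.7 with GK+mL. For both genes only GK+mL overlapped GK alone. Counted over the group, 8 of 10 genes (all but Acacb and Thrsp) had the 3 samples with hP below the 3 samples with GK alone (6.16% of all genes), and the same 8 did so with hL (5.58%) and with mP (6.1%), whereas with mL only Me1 did (5.69%).

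Fasn had 296.0, 297.6 and 363.4 CPM with GK+hP, 179.1, 279.3 and 360.2 with GK+hL, 180.4, 309.7 and 356.5 with GK+mP and 363.5, 406.8 and 592.5 with GK+mL. Mid1ip1 had 25.5, 30.5 and 45.6 CPM with GK+hP, 33.8, 29.9 and 36.8 with GK+hL, 43.5, 27.9 and 46.0 with GK+mP and 44.5, 43.9 and 82.9 with GK+mL. In mouse 3 the Mid1ip1 level with GK+mL exceeded the 70.5 CPM seen with GK alone.
Elovl6 ranged from 34.4 to 57.4 CPM over the samples with GK+hP, GK+hL and GK+mP, and was 56.5, 44.9 and 75.5 CPM with GK+mL. Scd1 was 2945, 3238 and 2382 CPM with GK+hP and 3636, 3652 and 2691 CPM with GK+mL. Me1 had 174.8, 184.5 and 172.6 CPM with GK+mL and 173.7, 191.5 and 154.7 CPM with GK+hL. Without Scd1, the summed level of the group was 1048 ± 81.7 CPM with GK+hP, 1019 ± 217 with GK+hL, 967.0 ± 217 with GK+mP and 1449 ± 260 with GK+mL (SD, n = 3), against 1808 ± 449 with GK alone.

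For the 5 genes called with GK, the share of the rise that was left with each vector was computed within each mouse, with 0% at the mean of its endogenous-GK samples and 100% at GK alone. The GK samples by which these genes were called also set the 100% mark. A GK sample that is high by itself therefore brings every share of that mouse nearer to 0%, and the shares are a description. With GK+mL the mean share left was 47.5% ± 12.6 for Acly, 58.8% ± 24.5 for Acaca, 74.7% ± 18.2 for Fasn, 76.8% ± 49.7 for Mid1ip1 and 61.2% ± 23.3 for Aacs (SD, n = 3). With GK+hP the means ran from -1.28% (Aacs) to 14.2% (Fasn), with GK+hL from -25.4% (Fasn) to 16.7% (Aacs), and with GK+mP from -20.4% (Fasn) to 29.4% (Mid1ip1). The negative means of Fasn came from mouse 1, whose share was -118% with GK+hL and -117% with GK+mP.

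**Figure D3:**
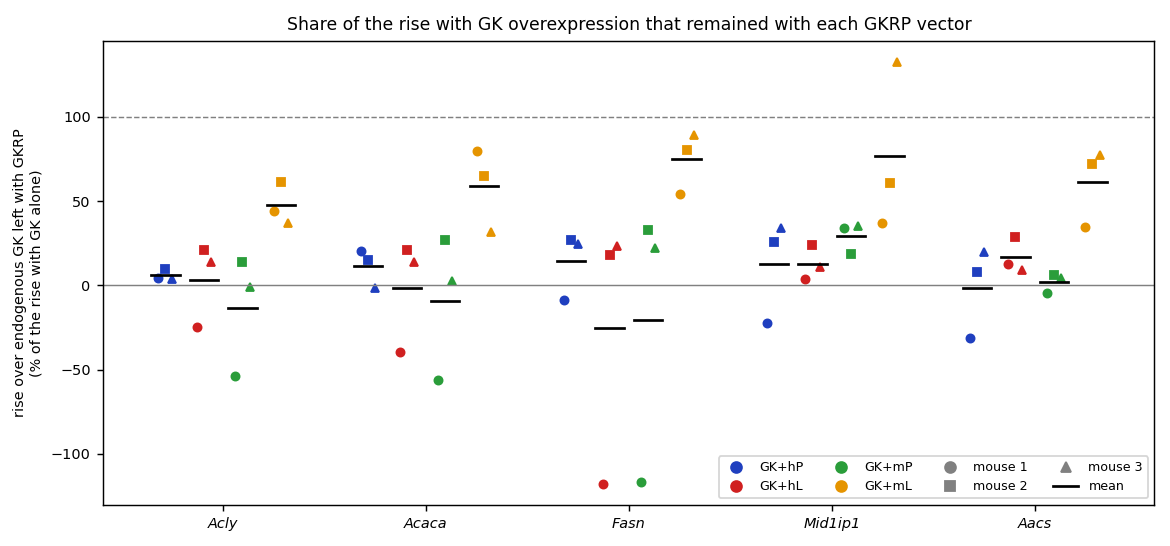
Share of the rise with GK overexpression that was left when a GKRP vector was added (vertical axis, % of the rise within each mouse) for the 5 genes called with GK; colours give the vector, symbols the mouse and black bars the mean. In all 5 genes the GK+mL mean (47.5% to 76.8%) lay above the means of the 3 other vectors, with wide spread between mice.

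GKRP-446L was then compared with GKRP-446P. With GK overexpressed and mouse GKRP, all 10 lipogenic genes were higher with 446L than with 446P in each of the 3 mice, which 12.2% of all genes were, although 2 scalings each turned 1 gene (Elovl6 -0.14 with the length-adjusted model, Acacb -0.03 with TPM). In the same comparison all 10 tested endothelial and stellate markers (median 0.21) and 9 of 12 macrophage markers (median 0.19) had higher values, with none called. The endothelial and stellate markers summed to 75.1, 226.1 and 170.6 CPM with GK+mP and 124.3, 239.8 and 187.1 CPM with GK+mL, and the macrophage markers to 317.3, 277.4 and 310.1 and to 280.7, 321.8 and 341.5 CPM. Their part in the lipogenic differences, and that of the lower Gckr with mL, was not tested. The log2 differences were 0.82 ± 0.21 for Aacs, 0.72 ± 0.27 for Acly, 0.70 ± 0.24 for Acaca and 0.69 ± 0.26 for Fasn (SE). None was called (edgeR adjusted p from 0.97 to 1.0), where 0.0164% of all genes were called higher. Acly alone was called with the mouse as a term, at 0.73 with an adjusted p of 0.040 (0.189% of all genes). Acaca, Fasn and Aacs had the 3 samples with GK+mL above the 3 with GK+mP, as 2.31% of all genes did.

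With human GKRP the differences between 446L and 446P in the presence of GK ran from -0.34 (Acacb) to 0.29 (Thrsp) on the log2 scale, and none was called (edgeR called 0 of all genes, with 128 higher and 127 lower at an unadjusted p under 0.05, and DESeq2 called none of the 10). Thrsp, Scd1 and Me1 were higher with 446L in each of the 3 mice, a pattern that 15% of all genes had. The difference between the species was tested as an interaction. It was 0.91 ± 0.37 for Fasn, 0.72 ± 0.34 for Acaca, 0.64 ± 0.38 for Acly and 0.61 ± 0.30 for Aacs (SE, log2). Aacs was turned to -0.20 by a length-adjusted model and -0.10 with TPM. Elovl6 had 0.70, turned to -0.17 by the length-adjusted model and 0.31 with TPM. No gene passed (edgeR adjusted p = 1.0 for each of the 10, with 231 genes higher and 263 lower at an unadjusted p under 0.05). At endogenous GK the 446L minus 446P differences were between -0.21 and 0.18 with human and between -0.18 and 0.14 with mouse GKRP, with none called, although Aacs, the highest with human GKRP, was turned to -1.24 by the length-adjusted model and -0.68 with TPM, and Acaca with mouse GKRP was -0.65 with TPM.

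No lipogenic gene was called for the effect of GK where both arms carried hP, hL or mP. Log2 fold changes of GK+hP over hP ran from -0.12 to 0.24, of GK+hL over hL from -0.28 to 0.41, and of GK+mP over mP from -0.22 to 0.36. These were wider with the scalings that use effective lengths, for example -1.09 for Aacs and 0.83 for Acly with hP and 0.91 for Mid1ip1 with mP by the length-adjusted model, and -1.05 for Acaca and -0.94 for Scd1 with mP by TPM. With mL they were 1.03 ± 0.21 for Aacs, 0.90 ± 0.31 for Mid1ip1, 0.86 ± 0.26 for Fasn, 0.73 ± 0.27 for Acly and 0.69 ± 0.24 for Acaca (SE). None of these was called (edgeR adjusted p = 0.17 for Aacs, and 0.0164% of all genes called higher). Acly and Aacs were called with the mouse as a term (adjusted p = 0.047 and 0.027, 0.222% of all genes), and with mL 7 of the 10 genes were higher in 3 of 3 mice, as 16.4% of all genes were, but TPM and a length-adjusted model gave -0.09 and -0.02 for Aacs. Tested as an interaction, the GK effect with a GKRP vector minus that without was between -0.98 and -0.09 over the 10 genes with hP, between -1.12 and -0.11 with hL, between -1.05 and -0.17 with mP and between -0.34 and 0.05 with mL. These differences all subtract the same GK-alone samples. With hP, hL and mP all 10 values were negative, where 49.0%, 47.8% and 51.0% of all genes had positive ones, except that the length-adjusted model and TPM turned Acly positive with each, the former turned Scd1 with hP and hL, and TPM turned Scd1 with hP and Aacs with hL. With mL those scalings gave -1.11 to 1.32 and -1.20 to 0.66. Both turned Acaca, Mid1ip1, Me1 and Acly to positive and Aacs and Acacb to negative values. The length-adjusted model also turned Fasn, Scd1 and Thrsp to positive values. None of these interactions passed (edgeR adjusted p = 1.0 in each), and 1 of all genes was called with the mouse as a term for hP and 1 for mP.

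The lipogenic genes were compared with each other over the 30 samples, after subtracting the mean of each mouse. Pearson's r then describes shared differences between conditions together with deviations of single samples within a mouse. The samples share 3 mice and 10 conditions and the values are a description. Acly and Acaca were the closest pair (Pearson's r = 0.95). Acly also had r = 0.88 with Elovl6, 0.87 with Aacs and 0.83 with Fasn, and Mid1ip1 had 0.87 with Aacs. The lowest value was between Acacb and Thrsp (-0.13).

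**Figure D4:**
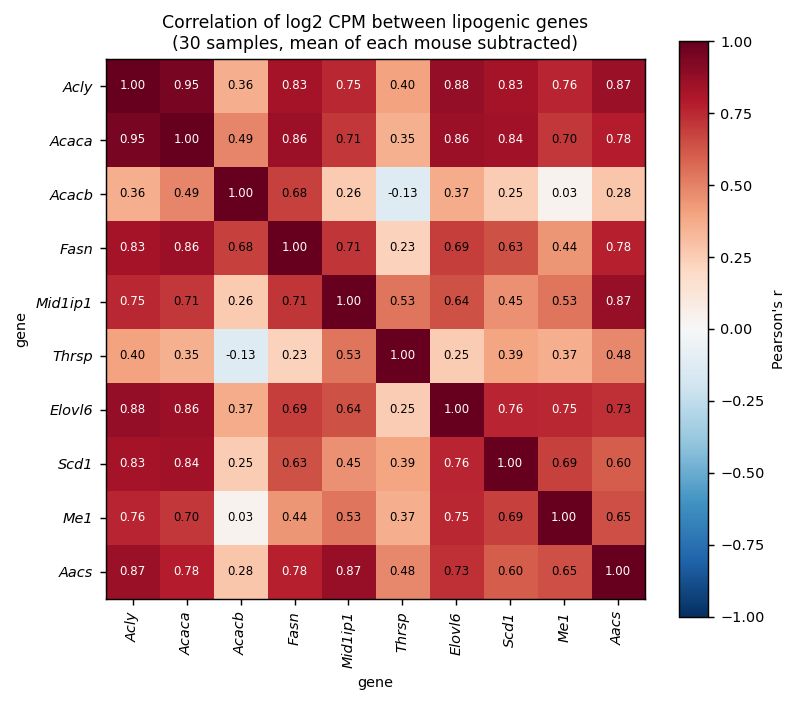
Pearson's r between the log2 CPM of the 10 lipogenic genes over 30 samples (colour scale from -1 to 1, mean of each mouse subtracted). Acly, Acaca, Fasn, Elovl6 and Aacs had values of 0.69 to 0.95 with each other, and Acacb and Thrsp have the lowest values, down to -0.13 with each other.

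Among other tested genes, those named here as most like the mean of the 10 standardized lipogenic genes were Slc25a44, a mitochondrial carrier (r = 0.95), Tkfc, triokinase of fructose metabolism (0.94), Glul, glutamine synthetase (0.94), and Klf10, a zinc finger factor (0.92). Tkfc and Klf10 are also on the list of ChREBP targets described next. Taken singly, Aacs was most like Angptl8 (r = 0.93), a secreted inhibitor of lipoprotein lipase, Mid1ip1 most like Klf10 (0.90), Scd1 most like Gpd2 (0.89), Thrsp most like Khk, fructokinase (0.81), and Acacb most like Epas1 (0.85).

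Genes around the pathway were counted in the same comparison of GK with endogenous GK. Of 14 tested genes for citrate, acetyl-CoA and NADPH supply, 0 were called, and their median log2 fold change was 0.11. Of 12 tested other elongases and desaturases 0 were called (median 0.05), of 21 genes of glycerolipid synthesis 0 (median 0.01), and of 19 genes of the sterol pathway driven by SREBP-2 0 (median -0.11). Among 20 regulators of lipogenesis 0 were called. Srebf1, which encodes SREBP-1c, had a log2 fold change of -0.10 ± 0.18 (SE, edgeR adjusted p = 1.0). With the mouse as a term, 2 regulators were called, chosen here after their values were seen: Mlxipl, which encodes ChREBP, at 62.2 CPM on average at endogenous GK and 93.0 CPM with GK (log2 fold change 0.58 in the model, edgeR adjusted p = 0.37, and 0.017 with that term), and Insig1, which restrains SREBP processing, at 154.7 and 99.3 CPM (-0.64, adjusted p = 0.23, and 0.0036 with that term).

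Of 14 tested ChREBP target genes, 11 were called higher with GK, with a median log2 fold change of 1.92, and Gckr, which the vectors supply, was one of the remaining 3. The largest were G6pc1, the catalytic subunit of glucose-6-phosphatase (3.17 ± 0.55 SE, edgeR adjusted p = 0.0022), Rgs16, a regulator of G protein signalling (3.14 ± 0.35, adjusted p = 4.9e-06), and Txnip, a thioredoxin-binding protein (3.10 ± 0.47, adjusted p = 0.00035). This list was chosen with results of these samples known and is no independent evidence of its direction. Those folds exceeded the largest among the lipogenic genes, 1.18 for Acly, on the same log2 scale. With the mean of the 4 GKRP vectors against GK alone, 9 of the 14 were called lower and the other lists named here had 0 called.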

How the data were processed

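RNA of 36 cultures was analysed. The authors ran Salmon 1.4.0 on untrimmed reads against Gencode M26 transcripts (GRCm39), after FastQC, and deposited expected counts, TPM and effective lengths for 139225 transcripts per culture, without pooling. By the labels only RNA with a RIN over their minimum was sequenced. Samples were grouped by the labels of vector, GK level and mouse.

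Transcripts were paired with genes by Gencode M39 (137570 matched, 98.8%; the others held 0.392% to 0.639% of reads). The deposited expected counts were summed to genes and over the 2 cultures of a mouse and condition, whose counts differed beyond sampling (chi-square over its degrees of freedom, 4.53 to 32.0), and rounded. The 12177 genes kept by filterByExpr were normalized by TMM (factors 0.901 to 1.09) and tested with edgeR 4.0.16 (glmQLFit and glmQLFTest, R 4.3.3), two-sided, with Benjamini-Hochberg adjustment over all of them. GK against endogenous GK and each vector with GK against GK alone were fitted with 6 groups, and all others with 10 conditions. The SE is the log2 fold change over the square root of F and covers counting error and the spread between samples of a group. In the fit with 6 groups the endogenous-GK group held 15 samples from 3 mice. Without a mouse term that fit takes these samples as independent, which they are not, and its spread includes differences between the pooled conditions. Correlations and likeness used log2 CPM with a prior count of 2. Tests were run on simulated counts drawn independently for each sample with no mouse effect, so this check does not cover samples that share a mouse.

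The design foresaw deposited TPM for comparing levels between genes. Salmon's effective lengths for 1 gene differed up to 67.8-fold between libraries (Aacs), so CPM per kb of transcript length, weighted by reads, was used instead. Samples of 1 mouse come from 1 animal, and their deviations correlated at 0.223 on average (82.2% of 135 pairs over 0.1) and at -0.110 between mice, so models with the mouse as a term pair the samples. The study names no such term, so it was an alternative. The others were DESeq2 1.42.0, RLE, TPM with limma 3.58.1 (log2 of TPM + 0.5), a length offset, filters, cultures as samples, other sample sets and each mouse left out.

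All 10 members were named in each comparison, with Gckr as a check, of each other list the 3 largest called genes per direction, the 6 genes most like the member mean and the 1 gene most like each member. Some genes that the rule names are not reported here. The members and lists were chosen with earlier results of these data known. CCAAT and GC boxes were searched after the other motifs were found in none of the 10 promoters.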

Additional observations from a re-analysis of the deposited data

How the results depend on the processing

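With the mouse as a term (the replicate block, paired samples), called lipogenic genes rose from 5 to 8 for GK against the 5 endogenous-GK conditions, from 0 to 5 against untreated, from 4 to 17 over the 4 vectors with GK against GK alone, from 0 to 2 for GK with a vector against that vector, and from 0 to 1 for 446L against 446P. It changed no call from higher to lower, and none was lost. DESeq2 called 3 genes against untreated, 10 over the 4 vectors with GK, and 1 for GK with a vector against that vector. With each culture as a sample these numbers were 8 against the endogenous-GK conditions, 5 against untreated and 7 over the 4 vectors. Against untreated, calls higher and lower over all genes were 21 and 11 by DESeq2 and 37 and 2 with cultures as samples. The latter setting takes 2 cultures of 1 mouse and condition as independent, which they are not, so its counts do not rest on more animals. A transcript length offset, and limma on the TPM, called 0 genes in every comparison, also for the mean of the 4 vectors, where the model called 4. Both rest on effective lengths that differed between libraries 59.6-fold for Acly and 67.8-fold for Aacs, and moved the median of all genes for the mean of the 4 vectors from 0.01 to 0.10 and -0.23 on the log2 scale. Leaving out each mouse in turn gave 0 to 5 called genes against the endogenous-GK conditions, 0 to 1 against untreated, 0 to 4 over the 4 vectors with GK and 0 to 3 for their mean. For the 10 genes against the endogenous-GK conditions and the genes called in the other comparisons, 166 recomputed values kept their side of the threshold, 53 lost the call, 11 gained it and none changed sign. Over all genes, calls higher and lower against the endogenous-GK conditions were 48 and 4, with the mouse as a term 158 and 84, by DESeq2 77 and 88, with cultures as samples 107 and 53, in the 10-condition model 73 and 72, with the length offset 14 and 0, with TPM 7 and 0, without mouse 1 61 and 3, without mouse 2 20 and 0 and without mouse 3 8 and 0. For the mean of the 4 vectors with GK they were 135 and 61, with the mouse as a term 355 and 173, by DESeq2 216 and 85, with cultures as samples 265 and 119, with the length offset 13 and 13, with TPM 0 and 2, without mouse 1 72 and 50, and without mouse 3 24 and 4. The summed level with GK over that at endogenous GK was 1.46 in CPM and 1.28 in TPM.

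All p-values rest on 3 mice, 1 of them labelled with another genotype. RNA abundance does not separate synthesis from decay. Acacb and Thrsp, with SEs of 0.25 and 0.40 on the log2 scale, could have moved by amounts that these samples cannot show.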
